A study of Homo sapiens with 12 samples.

Results

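The genes described here were 10 genes known to respond to bone morphogenetic protein (BMP) or transforming growth factor beta (TGF-beta) signalling, namely ID1, ID2, ID3, SMAD6, SMAD7, SKIL, SKI, BAMBI, TGIF1 and TGFBI. They were named by symbol for their known place in the pathway, by a rule that uses no value of these libraries though earlier results of the data were known, and all 10 were found among the 19901 protein-coding genes of the count table. RNA was sequenced from HCT116, an established line from a human colorectal carcinoma, whose KAP1 (a transcriptional regulator, the product of TRIM28) bears a tag that lets the small molecule dTAG send the protein for degradation. All cells came from 1 clone (D5) and were kept without serum for 48 h, with dTAG or its vehicle DMSO present for 8 h before the serum step. There were 12 libraries, 3 for each of 4 groups, DMSO-S0 and DMSO-S30 (vehicle) and dTAG-S0 and dTAG-S30 (depleted), where S0 stands for cells left without serum and S30 for cells given serum for 30 min. The comparisons bear on what acute KAP1 depletion does to RNA levels at rest and to the response to serum. A single clone limits what can be said of the line as a whole. No library came from untagged cells given dTAG, so an effect of dTAG apart from KAP1 loss was not tested. The study's methods call the 3 libraries of a group biological replicates without saying whether the cultures were separate, and the p-values measure the spread between these libraries.

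Ligands of the TGF-beta family bind receptor kinases of type I and type II at the cell surface, which phosphorylate SMAD proteins that then join SMAD4, enter the nucleus and act on target genes. BMPs signal through SMAD1, SMAD5 and SMAD9, and TGF-beta and activins signal through SMAD2 and SMAD3. Many of the first genes switched on are brakes on the pathway itself, and the ID genes, which are classical BMP targets, are also known as genes that serum induces in resting cells. HCT116 is known to carry inactivating frameshifts in the coding sequence of TGFBR2, the type II receptor for TGF-beta.

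Total counts were 20537682 to 26278707 per library, of which 7.971% to 9.366% came from the ERCC spike-in transcripts that were added to every sample. TRIM28 transcripts averaged 96.9 ± 4.74 normalised CPM (read counts relative to the library size scaled by its upper quartile; mean ± SD, n = 3) in DMSO-S0 and 92.6 ± 6.27 in dTAG-S0 (edgeR quasi-likelihood adjusted p = 0.781), which does not measure KAP1 loss because dTAG acts on the protein. The serum label was checked with FOS, an immediate early gene, whose log2 fold change with serum was 6.48 in DMSO-treated and 6.31 in dTAG-treated cells. Of 7 epithelial markers, 6 were at 74.7 to 593 CPM and CDX1 had 0 or 1 count in every library. The summed level of 3 leukocyte markers was 0.628 to 1.82 CPM and that of 3 endothelial markers 1.38 to 3.05 CPM. The summed level of 3 fibroblast markers was 12.5 to 16.6 CPM without serum and 64.6 to 84.2 CPM with serum, nearly all of it from COL1A1, while COL1A2 had 0 or 1 count and PDGFRB 1 to 15 counts in every library. The part of COL1A1-expressing cells in the results below was not tested.

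Serum raised most of these genes within 30 min. All 10 passed the filter on low counts, but TGFBI did so through the libraries with serum alone, so that it had to differ. It is left out of the counts and medians of the serum response and described by its counts. Of the other 9 genes, 7 passed the test and were higher in DMSO-treated cells, and the remaining pair, SMAD7 and SKI, did not pass it. Among all 13093 genes tested, 9.39% were called higher in the same comparison. In dTAG-treated cells 8 of 9 were called higher, all but SMAD7, against 9.30% of all genes. The median log2 fold change of the 9 genes was 0.61 in DMSO-treated and 0.58 in dTAG-treated cells, and the median of all genes was -0.07 and -0.06. Libraries with and without serum did not overlap, in either direction, in 44.4% of all genes in DMSO-treated and 37.5% in dTAG-treated cells. These shares are the background for statements below on serum within a treatment. Other statements set every library with serum above every library without it, over both treatments. The share of all genes with that pattern was not computed. The fold changes of the 9 genes were above 0 in both treatments under each of the 5 scalings tried. The make-up of all called genes, in contrast, moved with the scaling. In DMSO-treated cells 34.4% of all called genes were higher with upper-quartile scaling, 59.8% with TMM scaling, 57.4% with DESeq2 size factors and 66.5% with library sizes set by the spike-ins. In dTAG-treated cells these shares were 36.4%, 61.6%, 57.5% and 62.5%. As these are bulk libraries, a change in the share of cells that express a gene and a change in RNA per cell cannot be told apart.

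**Figure D1:**
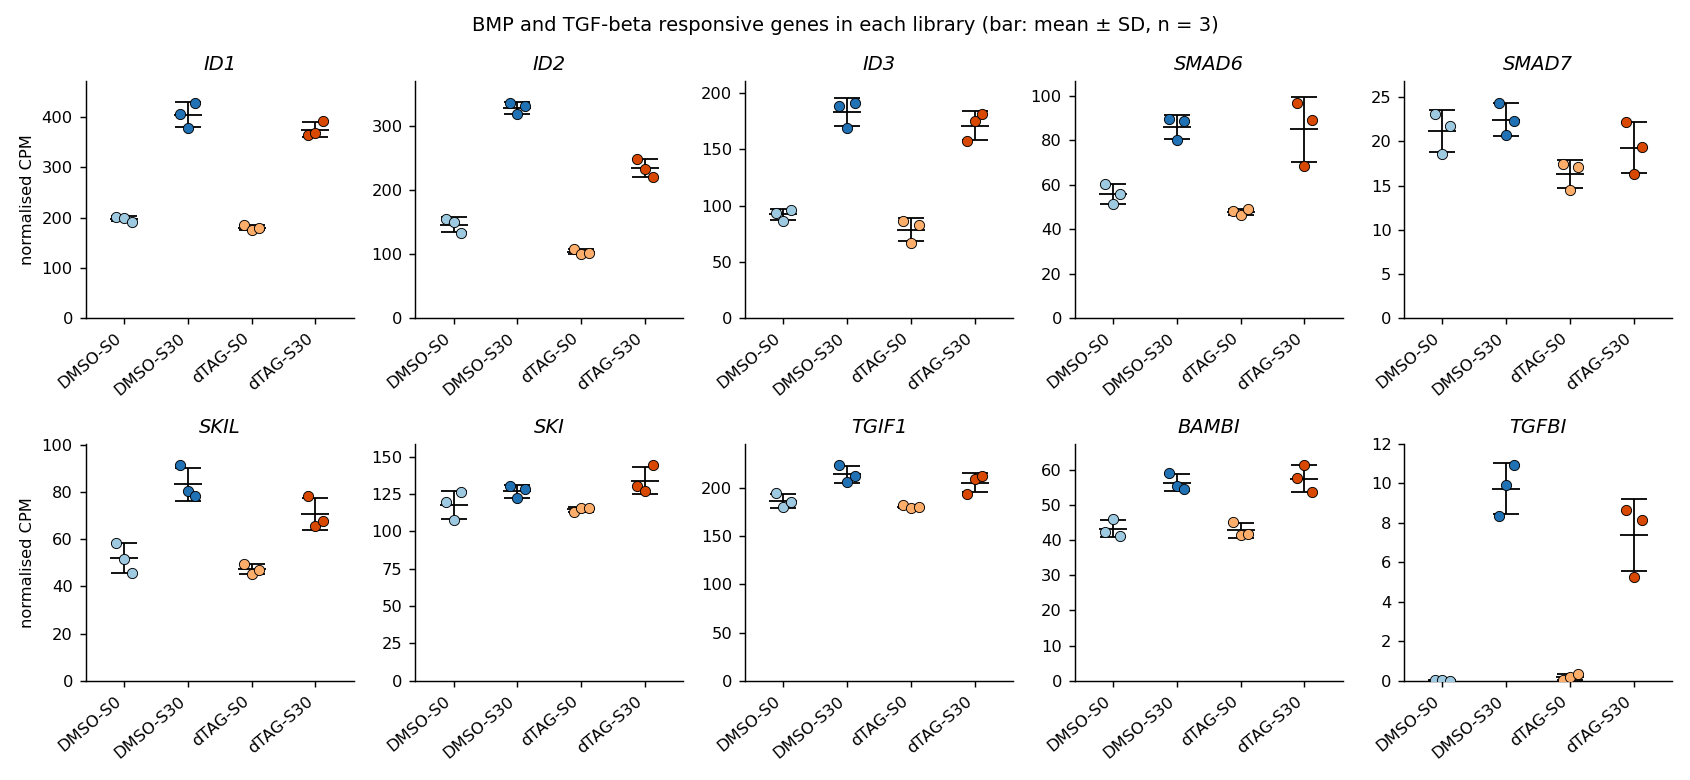
Normalised CPM of the 10 genes in each of the 12 libraries, 1 panel per gene with its own axis from 0; points are libraries and bars are the mean ± SD of 3. ID1, ID2, ID3, SMAD6, SKIL and BAMBI are higher in every library with serum than in every library without serum. The share of all genes with this pattern over both treatments was not computed. Within 1 treatment, groups did not overlap in 44.4% of all genes in DMSO and 37.5% in dTAG. TGFBI is drawn as a description, since it passed the filter on low counts through the libraries with serum alone. ID2 is lower with dTAG than with DMSO in both serum states.

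The ID genes encode helix-loop-helix proteins without a DNA-binding region, which hold other helix-loop-helix factors away from DNA. In hg38, ID1 (ENSG00000125968.8) lies at chr20:31605283-31606515 on the plus strand, ID2 (ENSG00000115738.9) at chr2:8678845-8684453 on the plus strand and ID3 (ENSG00000117318.8) at chr1:23557918-23559794 on the minus strand. ID2 overlaps the antisense long noncoding RNA ID2-AS1 in GENCODE v44. Since the strand setting of the counting is not given in the sources used here, reads from ID2 and ID2-AS1 cannot be told apart. The stretches below are RefSeq sequence before the RefSeq start site (GRCh38.p14, printed along the strand of the gene), which lies at 31605289 for ID1, 8682056 for ID2 and 23559501 for ID3. The ID2 and ID3 start sites lie inside the gene limits of the count table, so these stretches do too. They are shown because these 3 genes of 1 family had nearly the same serum response. Capitals mark matches on either strand to the CCAAT box (CCAAT, written ATTGG on the other strand) and the TATA box (TATAAA, of which ID1 holds 1 on each strand, overlapping).
ID1 (chr20:31605139-31605282, plus): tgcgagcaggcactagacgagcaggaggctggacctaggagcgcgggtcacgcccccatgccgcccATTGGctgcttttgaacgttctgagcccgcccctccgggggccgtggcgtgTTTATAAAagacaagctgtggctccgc
ID2 (chr2:8681966-8681995, plus): tgccaccttccgCCAATggggacgaaggga
ID3 (chr1:23559502-23559651, minus): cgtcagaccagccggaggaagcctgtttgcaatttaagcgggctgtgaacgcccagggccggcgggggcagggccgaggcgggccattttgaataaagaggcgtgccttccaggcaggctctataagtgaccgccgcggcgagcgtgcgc
Over windows from 250 bases before to 50 bases after the start, CCAAT was present in 34.6% and TATAAA in 11.5% of 35116 RefSeq promoters. ID2 held 3 CCAAT matches in its window, ID1 held 1, and the ID3 window held no match to either motif.

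ID1 was at 201, 199.4 and 192.2 CPM in the DMSO-S0 libraries and at 406.4, 378.8 and 428.9 CPM in DMSO-S30. With dTAG it was at 184.4, 175.0 and 179.7 CPM without serum and at 365.3, 367.9 and 391.5 CPM with serum. Every library with serum lay above every library without it. The log2 fold change with serum was 1.04 ± 0.061 (SE) in DMSO-treated cells, a 2.06-fold rise (edgeR adjusted p = 9.32e-14), and 1.06 ± 0.058 in dTAG-treated cells (adjusted p = 2.78e-14).

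ID3 was at 93.4, 86.7 and 96.4 CPM in DMSO-S0 and at 189.0, 169.4 and 191.7 CPM in DMSO-S30. In dTAG-treated cells it was at 86.2, 67.1 and 83.0 CPM without serum and at 157.3, 175.4 and 181.3 CPM with serum. As with ID1, the libraries with and without serum did not overlap. Its log2 fold change was 1.0 ± 0.080 in DMSO-treated cells (adjusted p = 8.54e-11) and 1.12 ± 0.077 in dTAG-treated cells (adjusted p = 4.14e-12). The gene whose pattern over the 12 libraries was most like that of ID3 was ID1, with a root mean square difference of 0.092 between their centred log2 CPM.

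ID2 was the member called for a difference between dTAG and DMSO, in both serum states. It was at 155, 150.1 and 133.7 CPM in DMSO-S0 and at 108.4, 100.7 and 102.0 CPM in dTAG-S0. After serum it was at 337.2, 318.9 and 331.5 CPM in DMSO-S30 and at 248.7, 233.9 and 220.7 CPM in dTAG-S30. The 4 groups did not overlap at all, and their order from low to high was dTAG-S0, DMSO-S0, dTAG-S30 and DMSO-S30. The share of all genes with 4 groups apart in this way was not computed. In the pairs of groups compared, libraries did not overlap in 15.7% to 44.4% of all genes. Serum raised ID2 by a log2 fold change of 1.17 ± 0.065 in DMSO-treated cells (2.25-fold, adjusted p = 3.72e-14) and of 1.18 ± 0.063 in dTAG-treated cells (2.26-fold, adjusted p = 1.3e-14). ID2 was lower with dTAG than with DMSO, by a log2 fold change of -0.50 ± 0.064 without serum (0.708-fold, adjusted p = 2.07e-05). With serum the log2 fold change was -0.49 ± 0.063 (0.714-fold, adjusted p = 2.63e-05). Both depletion calls were kept in all 9 other settings and in all 12 fits that left out 1 library, where the log2 fold changes ranged from -0.59 to -0.44 without serum and from -0.55 to -0.45 with serum.

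The inhibitory SMADs are feedback brakes: SMAD6 acts mainly on BMP signalling and SMAD7 on both branches, through the receptors and the ubiquitin ligases they recruit. SMAD6 (ENSG00000137834.14) lies at chr15:66702228-66782848 on the plus strand of hg38 and overlaps a long noncoding RNA on the same strand (ENSG00000274995), so part of its counts may belong to that RNA. Its promoter is shown because it holds the SMAD palindrome GTCTAGAC (capitals, the same on both strands), which was present in 0.202% of all promoter windows.
SMAD6 (chr15:66702176-66702235, plus): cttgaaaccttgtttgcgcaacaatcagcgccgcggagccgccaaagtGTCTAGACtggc
SMAD6 was at 60.3, 51.4 and 55.8 CPM in DMSO-S0 and at 89.5, 79.9 and 88.5 CPM in DMSO-S30. It was at 48.2, 46.2 and 49.1 CPM in dTAG-S0 and at 96.9, 68.4 and 89.2 CPM in dTAG-S30, where replicate 2 lay apart below the other 2. All libraries with serum were above all libraries without it. The log2 fold change was 0.61 ± 0.093 in DMSO-treated cells (adjusted p = 1.17e-05) and 0.83 ± 0.088 in dTAG-treated cells (adjusted p = 2.96e-08).

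SMAD7 (ENSG00000101665.8, chr18:48919853-48950711, minus strand) did not pass the test for serum in either treatment. It was at 23.2, 18.5 and 21.8 CPM in DMSO-S0 and at 24.4, 20.8 and 22.3 CPM in DMSO-S30, and these groups overlapped. It was at 17.4, 14.5 and 17.1 CPM in dTAG-S0 and at 22.2, 16.4 and 19.4 CPM in dTAG-S30, which overlapped as well. The log2 fold change with serum was 0.07 (95% interval -0.16 to 0.29, adjusted p = 0.695) in DMSO-treated cells and 0.25 (0.03 to 0.47, adjusted p = 0.0904) in dTAG-treated cells. In dTAG-treated cells SMAD7 passed the threshold in 5 of 9 other settings, with values of 0.24 to 0.30: TMM scaling (adjusted p = 0.0376), DESeq2 size factors (0.0447), the DESeq2 Wald test (0.0446), no count filter (0.0284) and the replicate block (0.0345). It also passed without dTAG-S30 replicate 2 (0.35, adjusted p = 0.0252).

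SKIL and SKI encode related co-repressors that bind SMAD complexes on DNA, and TGIF1 encodes a homeodomain co-repressor of SMAD2 and SMAD3. SKIL (ENSG00000136603.13) lies at chr3:170357678-170396835, SKI (ENSG00000157933.9) at chr1:2228695-2310119 and TGIF1 (ENSG00000177426.20) at chr18:3411608-3459978, all on the plus strand. TGIF1 overlaps the pseudogene BOD1P1 on the same strand. The short SKIL stretch below is shown for its full cyclic AMP response element (TGACGTCA, capitals, the same on both strands), which was present in 1.85% of all promoter windows.
SKIL (chr3:170357645-170357674, plus): cgggccgaggactcggTGACGTCAgagggc
SKIL was at 58.4, 51.4 and 45.7 CPM in DMSO-S0 and at 91.3, 80.4 and 78.3 CPM in DMSO-S30. In dTAG-treated cells it was at 49.6, 45.4 and 46.8 CPM without serum and at 78.4, 65.7 and 67.9 CPM with serum. Libraries with serum were above those without it in all cases. The log2 fold change was 0.68 ± 0.086 (adjusted p = 5.68e-07) in DMSO-treated and 0.58 ± 0.082 (adjusted p = 4.02e-06) in dTAG-treated cells.

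SKI and TGIF1 moved less. SKI averaged 117.8 ± 9.58 CPM in DMSO-S0 and 126.9 ± 4.25 in DMSO-S30, with overlapping libraries and a log2 fold change of 0.11 (95% interval -0.02 to 0.25, adjusted p = 0.197). In dTAG-treated cells it averaged 114.9 ± 1.64 CPM without serum and 133.9 ± 9.13 with serum, without overlap, and the log2 fold change of 0.22 ± 0.062 passed the test (adjusted p = 0.011). These SKI calls depended on settings. In DMSO-treated cells the rise passed the threshold with TMM scaling (0.18, adjusted p = 0.0312), DESeq2 size factors (0.17, adjusted p = 0.0411) and the DESeq2 Wald test (0.17, adjusted p = 0.0397). It also passed without DMSO-S0 replicate 3 (0.21, adjusted p = 0.046). The rise of SKI in dTAG-treated cells was lost with spike-in library sizes (0.26, adjusted p = 0.0548) and without dTAG-S30 replicate 3 (0.16, adjusted p = 0.105). TGIF1 averaged 186.5 ± 7.49 CPM in DMSO-S0 and 213.8 ± 8.91 in DMSO-S30 (log2 fold change 0.22 ± 0.058, edgeR adjusted p = 0.00625). It averaged 180.5 ± 1.38 CPM in dTAG-S0 and 205.0 ± 9.83 in dTAG-S30 (0.18 ± 0.055, adjusted p = 0.0205). The latter call of TGIF1 was lost without dTAG-S0 replicate 2 or 3 or dTAG-S30 replicate 2 or 3, with adjusted p of 0.0568, 0.0751, 0.0664 and 0.103.

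BAMBI encodes a receptor-like membrane protein without a kinase, which sits among the receptors and blocks signalling. It lies at chr10:28677342-28682939 on the plus strand (ENSG00000095739.10). The stretch below, which ends before the RefSeq start site at 28677521, is shown because it holds 3 copies of the GC-rich SMAD site GGCGCC (capitals, the same on both strands), a motif present at least once in 19.2% of all promoter windows. SKIL and TGFBI held 1 copy each in their windows, and ID1, ID2, ID3, SMAD6, SMAD7 and TGIF1 held none. SKI had no promoter entry to search.
BAMBI (chr10:28677271-28677345, plus): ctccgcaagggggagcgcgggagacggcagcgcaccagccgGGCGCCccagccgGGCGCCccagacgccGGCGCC
BAMBI was at 42.4, 45.9 and 41.3 CPM in DMSO-S0 and at 59.2, 55.3 and 54.5 CPM in DMSO-S30. It was at 45.3, 41.4 and 41.8 CPM in dTAG-S0 and at 57.7, 61.3 and 53.6 CPM in dTAG-S30. Again no library with serum fell to the level of one without it. The log2 fold change was 0.36 ± 0.071 (adjusted p = 0.000347) in DMSO-treated and 0.44 ± 0.067 (adjusted p = 1.68e-05) in dTAG-treated cells.

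TGFBI, which encodes a secreted matrix protein named for its induction by TGF-beta, went from near 0 to a clear level. It lies at chr5:136028895-136063818 on the plus strand (ENSG00000120708.16). The DMSO-S0 libraries held 1, 1 and 0 counts and the DMSO-S30 libraries 170, 225 and 226 counts. The dTAG-S0 libraries held 1, 4 and 8 counts and the dTAG-S30 libraries 193, 118 and 180 counts. No library with serum was near any library without it. The depth-adjusted ratio of summed counts was 297 in DMSO-treated cells (621 against 2 counts, 95% interval 81.9 to 2460, counting error only) and 38.7 in dTAG-treated cells (491 against 13 counts, 22.4 to 73.2). Since the filter on low counts let TGFBI in through these serum libraries, no p is given for either rise. With 2 counts in the DMSO-S0 libraries, the size of the rise in DMSO-treated cells is known only within that wide interval.

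**Figure D2:**
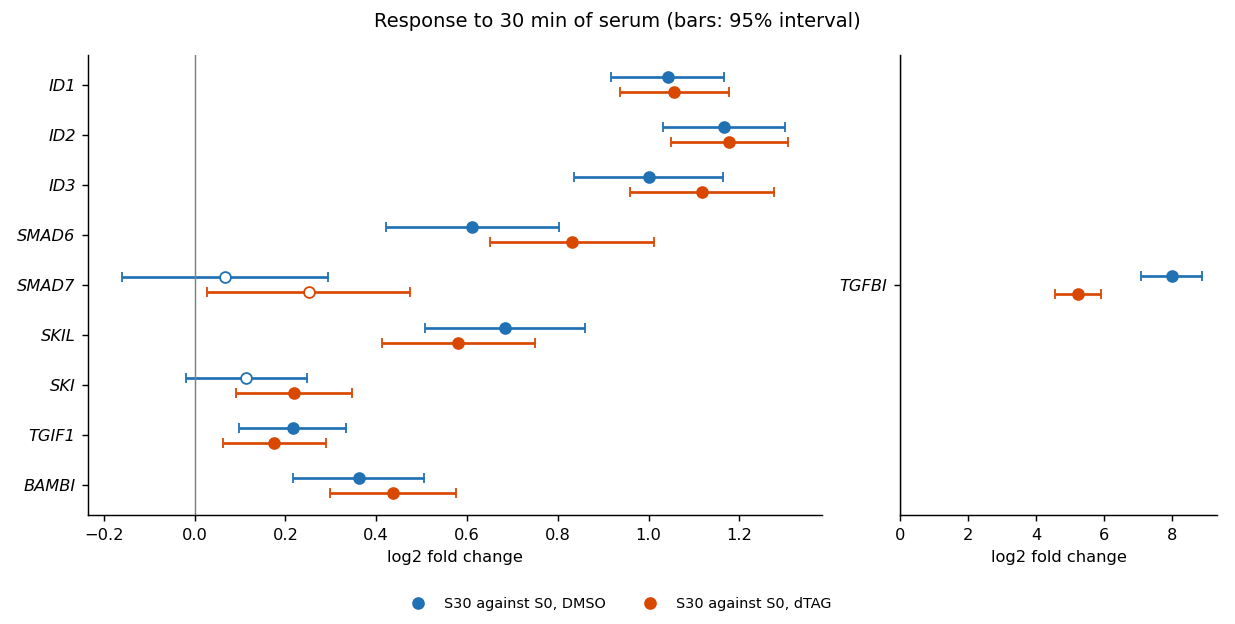
Log2 fold change with 30 min of serum for each gene in DMSO-treated (blue) and dTAG-treated (orange) cells, with TGFBI on an axis of its own and as a description alone, since it was let in by the libraries with serum; bars are 95% intervals and filled points had an adjusted p under 0.05. The fill of the TGFBI points is not read as a test, since the filter meant that it had to differ. The 3 ID genes lie at 1.0 to 1.18 in both treatments, SMAD7 is open in both and SKI is open in DMSO-treated cells.

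Without serum, 9 of 10 genes were lower in dTAG than in DMSO, where 52.4% of all genes were lower. ID2 alone passed the test, against 1.47% of all genes called in that comparison. The median log2 fold change of the 10 genes was -0.13 and that of all genes -0.01. In 5 members (ID1, ID2, ID3, SMAD6 and SMAD7) the 3 dTAG-S0 libraries lay wholly below the 3 DMSO-S0 libraries, and groups did not overlap in 17.7% of all genes. At an unadjusted p under 0.05, 5 members were lower and TGFBI was higher, where 6.56% of all genes were lower. The DMSO-S0 libraries are also the controls of the serum comparison in DMSO-treated cells, so the values of both comparisons share them.

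ID1 differed by a log2 fold change of -0.13 ± 0.059 (adjusted p = 0.351), ID3 by -0.22 ± 0.079 (adjusted p = 0.193) and SMAD6 by -0.23 ± 0.091 (adjusted p = 0.278). SMAD7 differed by -0.38 ± 0.109 (95% interval -0.61 to -0.16), a size near that of ID2 with a wider error, and its adjusted p was 0.0843. SMAD7 passed the threshold with a likelihood ratio test (adjusted p = 0.028) and in the fits that left out either replicate 2 of DMSO-S0 (-0.49, adjusted p = 0.0333) or replicate 1 of DMSO-S30 (-0.38, adjusted p = 0.0407). With no filter on low counts both SMAD7 (adjusted p = 0.00606) and ID3 (adjusted p = 0.04) passed it. For SKIL, SKI, BAMBI and TGIF1 the log2 fold changes were -0.13, -0.03, -0.03 and -0.04, with intervals that included 0. TGFBI had 13 counts in dTAG-S0 against 2 in DMSO-S0, a ratio of 5.8 (1.31 to 53.0, counting error only), and its adjusted p was 0.357.

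With serum, 8 of 10 genes were lower in dTAG than in DMSO, where 50.3% of all genes were lower. ID2 again was the member that passed the test, against 1.25% of all genes called, and the median was -0.11 for the 10 genes and 0.00 for all genes. ID2 was also the member whose dTAG-S30 and DMSO-S30 libraries did not overlap, which held for 15.7% of all genes. SKIL differed by -0.24 ± 0.082 (adjusted p = 0.207) and passed the threshold without dTAG-S30 replicate 1 (-0.35, adjusted p = 0.026) and with no filter on low counts (-0.24, adjusted p = 0.0344). TGFBI differed by -0.40 ± 0.177 (adjusted p = 0.39), with dTAG-S30 replicate 1 at 8.66 CPM and replicate 2 at 5.28 CPM, and passed it without replicate 1 (-0.82, adjusted p = 0.0464). SMAD6 stood at -0.01 (95% interval -0.19 to 0.17) and SMAD7 at -0.20 (-0.42 to 0.02). For ID1 the value was -0.12 (-0.24 to 0.00) and for ID3 -0.11 (-0.26 to 0.05), and SKI, BAMBI and TGIF1 had values of 0.07, 0.05 and -0.08.

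**Figure D3:**
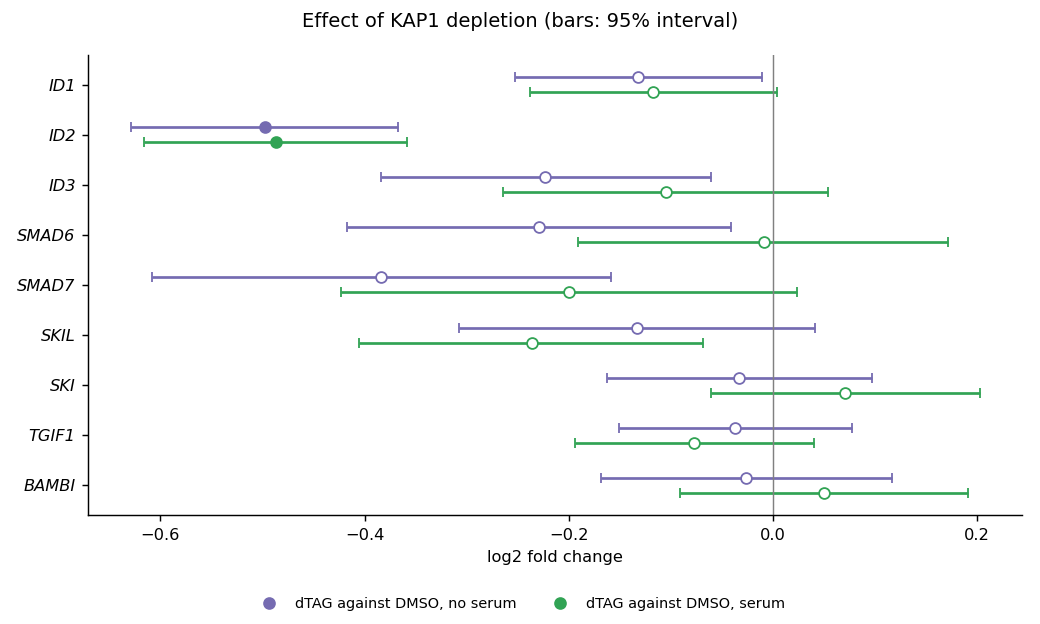
Log2 fold change of dTAG against DMSO for 9 genes without serum (purple) and with serum (green), with 95% intervals; filled points passed the test at an adjusted p under 0.05. ID2 is filled in both serum states at -0.50 and -0.49, and the open SMAD7 point without serum lies at -0.38; TGFBI is not drawn because of its few counts without serum.

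The difference between the serum responses in dTAG-treated and DMSO-treated cells was called for none of the 10 genes (edgeR adjusted p = 1 for each) and for 0.0458% of all genes, which is 6 genes. For TGFBI, with 2 counts in DMSO-S0, the fitted log2 difference had a 95% interval of -4.93 to -0.57 and moved from -3.38 to -2.04 with single libraries left out, so its size is not settled by these counts. For ID2 the difference was 0.01 with a 95% interval of -0.18 to 0.20, so that its level was lower in dTAG in both states while the fold response had the same size within this interval. The interval for ID1 was -0.16 to 0.19, for SMAD6 -0.05 to 0.49 and for SMAD7 -0.14 to 0.51. The other members had differences of -0.10 to 0.12, each with an interval that included 0.

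The members were set beside 78 other genes of BMP and TGF-beta signalling, listed by role, of which 60 passed the filter on low counts. SNAI2 reached the count minimum with serum alone and is left out of the counts and medians of the serum response. With serum in DMSO-treated cells 16 of the other 59 were called higher, against 9.39% of all genes, and 11 lower (18.6%), against 17.9% of all genes, with a median log2 fold change of 0.00. The rises lay mostly among further target genes, where 10 of 13 were called higher and none lower, with a median of 0.92. The 3 with the largest changes were CCN2, a matricellular protein, from 1.59 to 45.6 CPM (log2 fold change 4.84, adjusted p = 3.43e-21), BHLHE40, a repressor, from 19.0 to 160.1 CPM (3.11, adjusted p = 1.95e-20), and JUNB, an AP-1 subunit, from 34.3 to 287.1 CPM (3.09, adjusted p = 2.56e-21). SNAI2 held 0, 2 and 2 counts in DMSO-S0 and 14, 12 and 10 in DMSO-S30, a description for the reason given. In dTAG-treated cells 11 of the 13 further targets were called higher, with a median of 0.95.

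Upstream of the members, the ligands BMP4 (221.4 to 304.7 CPM, 0.47, adjusted p = 1.03e-06) and GDF15 (19.3 to 97.7 CPM, 2.39, adjusted p = 1.72e-18) rose with serum in DMSO-treated cells. TGFB1 fell (-0.25, adjusted p = 0.0289), a call not made with TMM scaling (adjusted p = 0.0769), DESeq2 size factors, the Wald test or spike-in library sizes. The TGFB1 call was also lost without DMSO-S0 replicate 1 or 3 or DMSO-S30 replicate 2 (adjusted p = 0.0723, 0.153 and 0.291). Of 11 receptors and co-receptors tested, TGFBR2 rose from 142.3 to 189.7 CPM (0.39, adjusted p = 2.21e-05). Another 7 were called lower, against 17.9% of all genes, ACVR2A (-0.30), RGMA (-0.30) and ACVR2B (-0.24) among them. The median of the 11 was -0.24. The lower receptor calls depended on scaling. With TMM scaling 1 of the 11 was called lower, as were 1187 of all 13093 genes. With spike-in library sizes none was, where 591 of all genes were called lower. TGFBR2 was called higher in each. Among intracellular regulators PMEPA1, which takes SMAD2 and SMAD3 away from the receptor, rose from 8.40 to 23.3 CPM (1.47, adjusted p = 4.68e-10). The ubiquitin ligases WWP1 (-0.26) and RNF111 (-0.26) were called lower except with spike-in library sizes, and NEDD4L (0.20) was called higher except without DMSO-S0 replicate 1 or 2 or DMSO-S30 replicate 2. SMAD1 (-0.18, adjusted p = 0.031) and the antagonist NBL1 (0.30, adjusted p = 0.0279) were called in their roles. The SMAD1 call was not made with TMM scaling (-0.07, adjusted p = 0.441), DESeq2 size factors, the Wald test, spike-in library sizes, upper-quartile scaling without the factor, no count filter or the fit on 6 libraries. The SMAD1 call was also lost without DMSO-S0 replicate 2 or 3 or DMSO-S30 replicate 2 or 3. The NBL1 call was not made with spike-in library sizes (adjusted p = 0.054) or without the factor (adjusted p = 0.077). It was also lost without DMSO-S0 replicate 2 or 3, DMSO-S30 replicate 1 or dTAG-S30 replicate 3 (adjusted p = 0.0651, 0.102, 0.0508 and 0.0632).

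With KAP1 depletion 3 of the 60 genes were called without serum and 4 with serum, against 1.47% and 1.25% of all genes. Without serum BHLHE40 rose from 19.0 to 29.7 CPM (0.67, adjusted p = 0.000106), SMAD9 fell from 15.4 to 10.3 CPM (-0.59, adjusted p = 0.0019) and ATOH8, a transcription factor, fell from 10.2 to 6.87 CPM (-0.59, adjusted p = 0.00876). With serum all 4 called genes were lower: CCN2 from 45.6 to 26.4 CPM (-0.78, adjusted p = 7.41e-06), SNAI1 from 15.1 to 9.61 CPM (-0.65, adjusted p = 0.00246), SMAD9 from 14.1 to 9.68 CPM (-0.53, adjusted p = 0.00832) and GDF15 from 97.7 to 80.1 CPM (-0.33, adjusted p = 0.0207). SMAD9, which carries BMP signals, was thus the listed gene that was called lower with dTAG in both serum states, as ID2 was among the members. The other called genes did not pass the test in the other serum state. Without serum CCN2 was at -0.75 (adjusted p = 0.142), SNAI1 at -0.23 (adjusted p = 0.564) and GDF15 at 0.15 (adjusted p = 0.544). With serum ATOH8 was at -0.42 (adjusted p = 0.0914) and BHLHE40 at 0.16 (adjusted p = 0.492). The SMAD9 call with serum was lost without dTAG-S30 replicate 1 (-0.44, adjusted p = 0.0577) or replicate 3 (-0.50, adjusted p = 0.0505). ATOH8 was not called with spike-in library sizes (adjusted p = 0.113) or without DMSO-S0 replicate 3 (adjusted p = 0.139) or dTAG-S0 replicate 3 (adjusted p = 0.0755). GDF15 was not called with spike-in library sizes (adjusted p = 0.353) or without DMSO-S30 replicate 3, dTAG-S30 replicate 1 or dTAG-S30 replicate 2 (adjusted p = 0.26, 0.0658 and 0.112). The median over the 60 genes was -0.03 in both serum states, and no gene of the 60 was called for a difference in serum response.

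**Figure D4:**
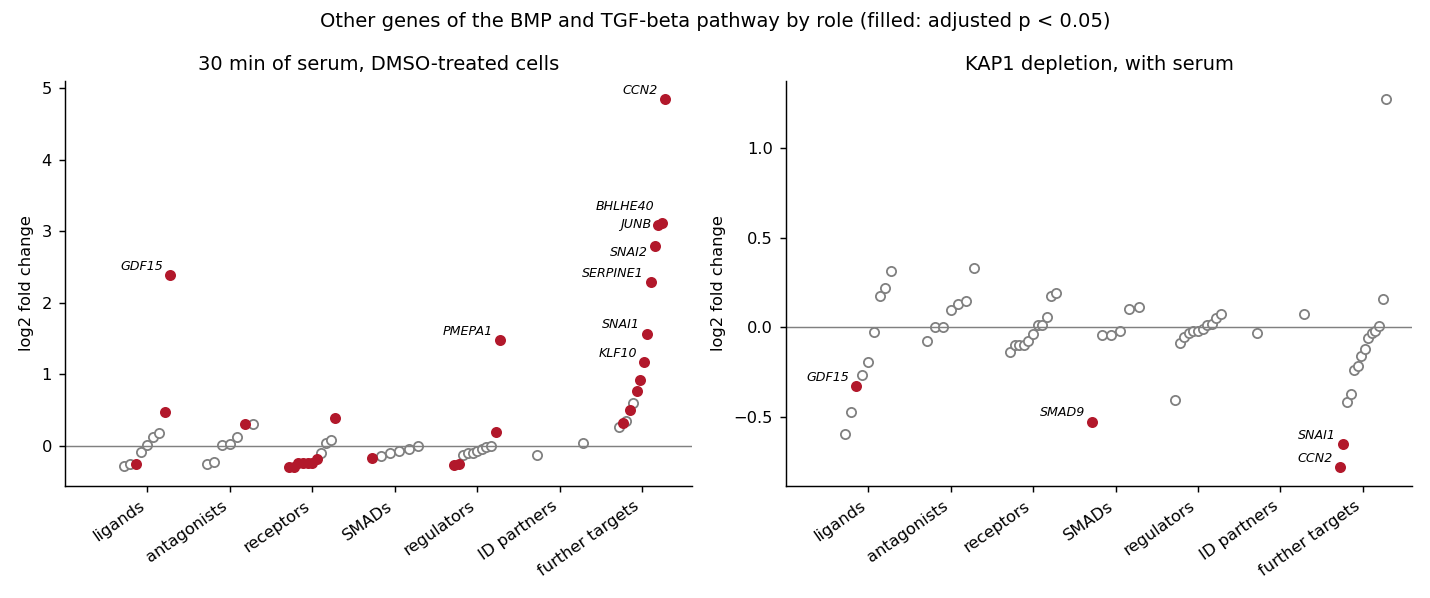
Log2 fold change of each of the 60 tested pathway genes by role, left with serum in DMSO-treated cells and right for dTAG against DMSO with serum; filled points passed the test at an adjusted p under 0.05. SNAI2 is drawn as a description, since it reached the count minimum with serum alone. Its fill on the left is not read as a test. The rises with serum lie mainly among further targets, led by CCN2 at 4.84, and the 4 filled points on the right are GDF15, SMAD9, SNAI1 and CCN2.

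By the same measure of likeness over the 12 libraries, the nearest gene to ID1 was GPRC5C (0.066), to ID2 RND3 (0.162), to SKIL YPEL5 (0.096), to BAMBI BTG1 (0.065), to SKI MPRIP (0.035) and to TGIF1 TSC22D1 (0.043). SMAD6 was nearest to ENSG00000284461 (0.094) and TGFBI to ATF3 (0.464). The nearest gene to ID2 was thus further off than those to ID1 and ID3. TGFBI, which has few counts without serum, had the largest such distance among the members. The distances are not on 1 scale, since the members moved by unlike amounts. The root mean square of a member's own centred log2 CPM was 2.85 for TGFBI, 0.64 for ID2, 0.11 for SKI and 0.108 for TGIF1.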

How the data were processed

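Ribosomal RNA was depleted before libraries were made. Per the labels and the study's methods, the authors trimmed reads (Trim Galore 0.6.4), checked them (FastQC 0.11.8), mapped them to hg38 with STAR and counted them with featureCounts (Subread 1.6.3) over whole genes, introns included; how strand and multi-mapping reads were treated is not given in the sources used here. The authors deposited unnormalized counts of reads, for genes and for ERCC spike-ins. Introns add unspliced RNA, which weighs more in long genes.

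From these, a gene was tested where 6 or more of the 12 libraries held 10 or more counts (13093 genes, 6808 left out, and 69 of 92 ERCC transcripts kept). Counts were scaled by the upper quartile, the RUVg algorithm gave 1 factor of unwanted variation from the ERCC spike-ins, and the 4 groups were fitted together with edgeR 4.0.16 (R 4.3.3), with the two-sided quasi-likelihood F-test and Benjamini-Hochberg adjustment over all genes tested, called at an adjusted p under 0.05. The SE was taken as the log2 fold change divided by the square root of F. CPM are given as mean ± SD of 3 libraries. Scripts were tested on simulated data. Overlapping gene models came from GENCODE v44 and promoter sequence from RefSeq, where 9 of 10 members had an entry; motifs were searched on both strands, and a match describes letters in a window, not a bound site. Intervals on count ratios cover counting error only. The alternatives were TMM scaling, DESeq2 1.42.0 size factors and Wald test, spike-in library sizes, upper quartile without the factor, no count filter, a likelihood ratio test, a replicate block, a fit on the 6 libraries compared, and leaving out each library.

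The members and gene lists were chosen with earlier results of these data known. The text names all 10 members, up to 4 called genes per pathway role with the largest change with serum in DMSO, every pathway gene called for depletion, TRIM28, FOS and the genes nearest in pattern to a member. With 3 against 3 libraries an exact permutation test cannot go below p = 0.1, so non-overlap is given as a count. No correlation between libraries or comparisons was computed as a result.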

Additional observations from a re-analysis of the deposited data

How the results depend on the processing

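Of the 1040 member values recomputed under alternatives, 985 kept their direction and their side of the threshold, 20 came past the threshold, 6 lost it and 29 changed sign, all of the last among values that had not passed the test. The serum calls of ID1, ID2, ID3, SMAD6, SKIL and BAMBI and both depletion calls of ID2 held in every alternative. Over 18 pairs of same-numbered libraries the correlation of deviations from the group means was -0.153 to 0.139, over 0.1 in 1 pair. Pairs with different numbers were not set beside them, so these values cannot settle whether the replicate numbers pair libraries. With the replicate block 2 members were called for depletion in each serum state, where 1 was called without it: SMAD7 was added without serum (-0.37, adjusted p = 0.018) and SKIL with serum (-0.25, adjusted p = 0.033), and SMAD7 passed the threshold with serum in dTAG-treated cells (0.24, adjusted p = 0.0345). Without a count filter 3 members were called for depletion without serum and 2 with serum, and the likelihood ratio test called 2 without serum.

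Spike-in library sizes gave fewer calls: 16 of the 60 pathway genes, SNAI2 included, for serum in DMSO (28 with the scaling of the report) and 17 in dTAG (26), and 1766 (3572) and 1646 (3339) of all genes. For all genes they gave 76 calls for depletion without serum (193), 66 with serum (164) and 3 for the difference in serum response (6). Without a count filter the counts of all genes were 315, 287 and 24, with the likelihood ratio test 310, 277 and 16, and with the DESeq2 Wald test 290 for depletion with serum and 22 for the difference. Pathway genes called for depletion without serum were 6 without a filter and 5 with the likelihood ratio test (3 in the report), with serum 7 with each of these and with DESeq2 (4), and for the difference in serum response 3, 2 and 1 (0).

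Leaving out 1 library gave 1 to 2 members called for depletion without serum and 1 to 3 with serum, 2 to 5 and 3 to 7 pathway genes, and 0 to 2 pathway genes for the difference. Counts of all genes then ranged from 2129 to 4009 for serum in dTAG, 69 to 305 for depletion without serum and 98 to 267 with serum.

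Sign changes were small. For depletion BAMBI without serum was at 0.02 with spike-in library sizes and SMAD6 with serum at 0.023 in the fit on 6 libraries. For the difference in serum response ID2 was at -0.004 with TMM, -0.006 with DESeq2 size factors and the Wald test, -0.022 with spike-ins and -0.003 with the block, and ID1 at -0.004 with spike-ins. With 1 library left out the ranges were -0.06 to 0.127 for SMAD7 (serum, DMSO), -0.095 to 0.023 for BAMBI and -0.101 to 0.054 for SKI (depletion without serum), and -0.162 to 0.11 for SMAD6 (depletion with serum). For the difference in serum response they were -0.052 to 0.063 for ID1, -0.063 to 0.124 for ID2, -0.243 to 0.047 for SKIL, -0.001 to 0.181 for SKI and -0.089 to 0.009 for TGIF1. The causes were not tested. Depth limits TGFBI without serum, where its groups held 2 and 13 counts.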
